A study of Mus musculus with 3 samples.

Results

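In the table of ATAC-seq counts from mouse skin squamous cell carcinoma cells, 4886 regions were high only in the column labelled Fat1 cKO Epcam-. ATAC-seq inserts sequencing adapters into open DNA with the Tn5 transposase, so the count of a region measures how accessible its chromatin was. Counts, with 1 added to each, were scaled to 1000000 nuclear counts per column. A region on chromosomes 1 to 19 was kept if it held 20 or more counts in the Fat1 cKO Epcam- column and its scaled value there was at least 3-fold that in each of the other 2 columns. The 4886 member regions were 5.21% of the 93843 merged regions on those chromosomes and 8.96% of the 54515 that held 20 or more counts in the Fat1 cKO Epcam- column, which are called eligible here. The members were chosen by these counts, so their counts and ratios are given as a description and support nothing.

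The tumours arose after treatment with DMBA, a mutagen, and TPA, a tumour promoter, in mice of mixed background. The control mice were K14Cre;RYFP and the Fat1 cKO mice were K14Cre;Fat1fl/fl,RYFP, so all 3 libraries came from animals carrying a Cre driven by the keratin 14 promoter, active in basal keratinocytes, and a YFP reporter. Cells were sorted by Epcam, a surface protein of epithelial cells, into a control Epcam+ library, a Fat1 cKO Epcam+ library and a Fat1 cKO Epcam- library. Each group had 1 library made from 100000 sorted cells. The titles of both Fat1 cKO libraries share a prefix, and the titles do not say what it names. There are thus no replicates, no tests and no p-values, and whether a difference exceeds the spread between tumours cannot be told. Fat1 encodes a large protocadherin that acts as a tumour suppressor in squamous epithelia.

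In epidermis, basal keratinocytes adhere to the basement membrane and divide. Their daughters move outwards and switch on genes of terminal differentiation, which encode cornified envelope proteins, the transglutaminases that crosslink them, and enzymes that make the ceramides of the lipid barrier. Carcinoma cells that lose epithelial features and gain mesenchymal ones, as in the epithelial to mesenchymal transition (EMT), often lose Epcam from their surface. Distal accessible regions such as enhancers vary more between cell states than promoters do.

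Promoter sequences show where member regions met the start of a differentiation gene. The sequences are shown for the 7 promoters of the squamous differentiation and epidermal lipid barrier lists that lay inside a member region, and for Bmp4, a signalling ligand with the same position. All 8 were chosen with the counts known. Each is the 250 bases before an annotated start, in the direction of transcription, from RefSeq on GRCm38.p6. Capitals mark matches, on either strand, to the motifs of AP-1, spelled TGANTCA, of CEBP, spelled TTGCNNAA, and of KLF/SP, spelled GGGCGG. They also mark AP-2, spelled GCCNNNGGC, RUNX, spelled TGTGGT, and TEAD, spelled GGAATG. The motifs of GATA factors, GRHL, ETS and paired p63 sites were searched too and have no match in these 8. The E-box, SOX and NFY motifs, counted further below, are not marked, and some of their matches stand in lower case. Matches of AP-2 and CEBP overlap in Nipal4. A match describes letters and is no evidence of binding.
Crnn, cornulin, a cornified envelope protein, chr3:93144539-93144788, + strand: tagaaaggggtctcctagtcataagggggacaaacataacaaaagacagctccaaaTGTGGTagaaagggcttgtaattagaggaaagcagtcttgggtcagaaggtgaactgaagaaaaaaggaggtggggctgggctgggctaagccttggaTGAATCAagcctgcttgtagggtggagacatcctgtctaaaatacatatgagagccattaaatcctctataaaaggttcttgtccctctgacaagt
Casp14, the epidermal caspase that processes filaggrin, chr10:78718294-78718543, - strand: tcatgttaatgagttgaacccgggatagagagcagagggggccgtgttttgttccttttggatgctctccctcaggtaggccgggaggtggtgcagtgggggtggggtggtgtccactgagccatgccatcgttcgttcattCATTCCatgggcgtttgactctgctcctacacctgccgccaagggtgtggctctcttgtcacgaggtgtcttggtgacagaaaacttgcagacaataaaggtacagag
Ivl, involucrin, an envelope precursor, chr3:92573736-92573985, - strand: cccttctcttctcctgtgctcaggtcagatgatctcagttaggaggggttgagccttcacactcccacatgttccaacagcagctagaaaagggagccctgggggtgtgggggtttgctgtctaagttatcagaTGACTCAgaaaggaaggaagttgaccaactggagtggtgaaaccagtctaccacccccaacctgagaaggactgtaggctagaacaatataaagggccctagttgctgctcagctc
Tgm3, transglutaminase 3, an internal start of the gene, chr2:130012090-130012339, + strand: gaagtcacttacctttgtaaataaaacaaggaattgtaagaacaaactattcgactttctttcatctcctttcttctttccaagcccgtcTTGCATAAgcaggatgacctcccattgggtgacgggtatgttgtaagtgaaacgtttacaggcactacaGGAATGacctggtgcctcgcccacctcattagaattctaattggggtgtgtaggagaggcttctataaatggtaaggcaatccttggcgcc
Nipal4, ichthyin, a transporter-like protein mutated in ichthyosis, chr11:46166360-46166609, - strand: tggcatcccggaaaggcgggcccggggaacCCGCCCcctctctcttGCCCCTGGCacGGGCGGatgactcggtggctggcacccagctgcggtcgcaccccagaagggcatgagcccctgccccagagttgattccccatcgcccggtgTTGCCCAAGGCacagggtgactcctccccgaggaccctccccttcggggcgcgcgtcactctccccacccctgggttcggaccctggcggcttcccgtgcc
Lipn, an epidermal lipase, chr19:34067108-34067357, + strand: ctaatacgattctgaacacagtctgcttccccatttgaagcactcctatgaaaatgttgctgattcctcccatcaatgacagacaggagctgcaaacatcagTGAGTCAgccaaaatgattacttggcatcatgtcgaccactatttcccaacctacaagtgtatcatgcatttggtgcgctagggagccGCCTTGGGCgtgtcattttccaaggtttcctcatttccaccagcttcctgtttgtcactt
Acer1, the alkaline ceramidase of differentiating keratinocytes, chr17:56982127-56982376, - strand: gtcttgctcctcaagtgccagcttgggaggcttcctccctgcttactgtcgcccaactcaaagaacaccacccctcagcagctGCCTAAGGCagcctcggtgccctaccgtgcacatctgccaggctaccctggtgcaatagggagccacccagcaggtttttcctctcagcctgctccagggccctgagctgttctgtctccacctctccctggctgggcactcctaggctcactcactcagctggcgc
Bmp4, a bone morphogenetic protein, chr14:46390670-46390919, - strand: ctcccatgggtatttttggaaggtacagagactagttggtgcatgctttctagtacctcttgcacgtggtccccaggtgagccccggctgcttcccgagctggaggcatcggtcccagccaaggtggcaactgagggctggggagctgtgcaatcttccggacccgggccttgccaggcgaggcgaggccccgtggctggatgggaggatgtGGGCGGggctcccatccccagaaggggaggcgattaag

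Before any result, the deposited peak calls went against the count columns. For each region the table also says whether a peak was called in each library. Of the 4886 member regions, 538 (11.0%, 95% Clopper-Pearson interval 10.2 to 11.9) were called in the Fat1 cKO Epcam- column, in which 61.5% of eligible regions were called. In the Fat1 cKO Epcam+ column 232 members (4.75%) were called, against 57.8% of eligible regions. By contrast 4838 members (99.0%, 98.7 to 99.3) were called in the control Epcam+ column, against 89.3% of eligible regions. Most members, 4227 or 86.5%, were called in the control column alone, although their counts there were low, with a median of 7.

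The share of members called in their own column rose with counts, while the share called in the control column stayed high. Among members with 20 to 29 counts in the Fat1 cKO Epcam- column, 0 of 890 were called in that column, against 36.2% of eligible regions in the same count range. The share was 8.16% of members with 50 to 99 counts, against 65.7% of eligible regions, and 87.0% of the 100 members with 200 or more counts, against 99.5%. Over the same bins the control column called 95.8% to 100% of members. Among members with 50 to 99 counts, those called in the Fat1 cKO Epcam- column had median counts of 83.5 there and 17 in control Epcam+. Those not called there had 65 and 11. The 2890 regions high only in the control Epcam+ column, found by the same rule with the columns exchanged, were called in the Fat1 cKO Epcam- column in 96.4% of cases and in the control column in 7.30%. The 1890 regions high only in the Fat1 cKO Epcam+ column were called in their own column in 98.9% of cases.

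**Figure D1:**
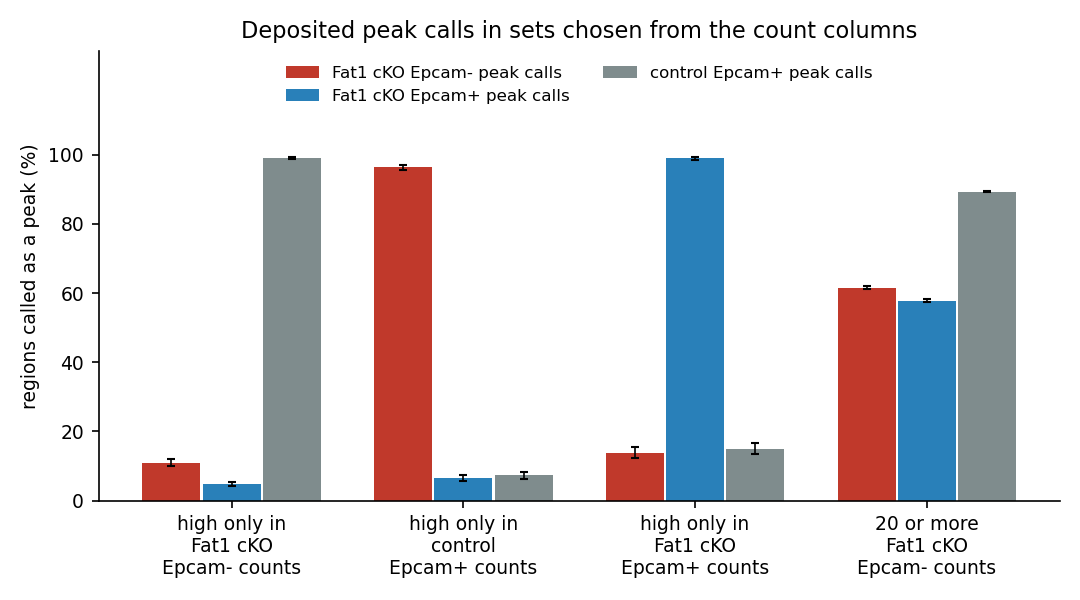
Share of regions (%, vertical axis, with 95% Clopper-Pearson intervals) called as a peak in each library, for the 3 sets high only in 1 count column and for all eligible regions. The sets named for the Fat1 cKO Epcam- and control Epcam+ counts were called at 99.0% and 96.4% in the other of those 2 libraries and at 11.0% and 7.30% in their own.

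For these 2 libraries the calls and the counts thus point to different labels, and the cause was not tested. The region at the end of Epcam held 328 counts in the Fat1 cKO Epcam- column, 205 in Fat1 cKO Epcam+ and 69 in control Epcam+, or 60.0, 54.0 and 16.2 per 1000000 nuclear counts, and the ratio between the 2 Fat1 cKO columns was 1.11 (0.931 to 1.33). At each of the other 5 regions assigned to Epcam, Fat1 cKO Epcam+ was the highest of the 3 columns per nuclear count, with ratios of Fat1 cKO Epcam- to it of 0.128 to 0.645. Summed, the 6 regions held 725, 819 and 305 counts. No region of Epcam (6 assigned), Fat1 (20 assigned) or Krt14, a basal keratin (6 assigned), was a member. The region at the end of Krt14 held 44.5, 59.0 and 13.8 per 1000000 nuclear counts in the same order, and Fat1 cKO Epcam+ was also the highest at the other 5 regions of Krt14. Because calls and counts differ, every library is named below by its label alone. Counts are given in the order Fat1 cKO Epcam-, Fat1 cKO Epcam+, control Epcam+, as the columns are labelled, and each direction is one between column labels. The columns held 5485317, 3812880 and 4335304 nuclear counts. Leaving out either comparison column changed the set: 9996 regions (18.3% of eligible) were 3-fold over control Epcam+ and 9524 (17.5%) were 3-fold over Fat1 cKO Epcam+.

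Member regions were modest in signal. Their median counts were 48, 6 and 8, with a range of 20 to 635 in the Fat1 cKO Epcam- column, and they held 5.64%, 1.03% and 1.15% of the nuclear counts of the 3 columns. The median ratio was 4.40 over control Epcam+ (range 3.00 to 90.1) and 4.81 over Fat1 cKO Epcam+ (range 3.00 to 52.1). At least 5-fold over both stood 965 members (19.8%), and 52 were at least 10-fold over both. Fat1 cKO Epcam+ and control Epcam+ lay within 2-fold of each other in 82.7% of members and in 72.8% of eligible regions. The lower 95% counting bound of both ratios was above 2 in 2618 members (53.6%) and above 3 in 551 (11.3%). Because the rule chose members by these same counts, the bounds do not show that a difference exceeds counting error. The reads carry no molecular identifiers and may repeat a molecule, so all such intervals cover counting error only.

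Just inside the threshold of 3, the smaller ratio was 3.00 near Vps8 (258, 59 and 46 counts), Prdm13 (107, 24 and 10) and Fbrsl1 (107, 24 and 23). Just outside, it was 2.999 near Gm973 (147, 21 and 38) and Fmnl2 (147, 19 and 38) and 2.998 near Sfrp2 (109, 7 and 28). The members are thus a slice of a continuous spread.

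**Figure D2:**
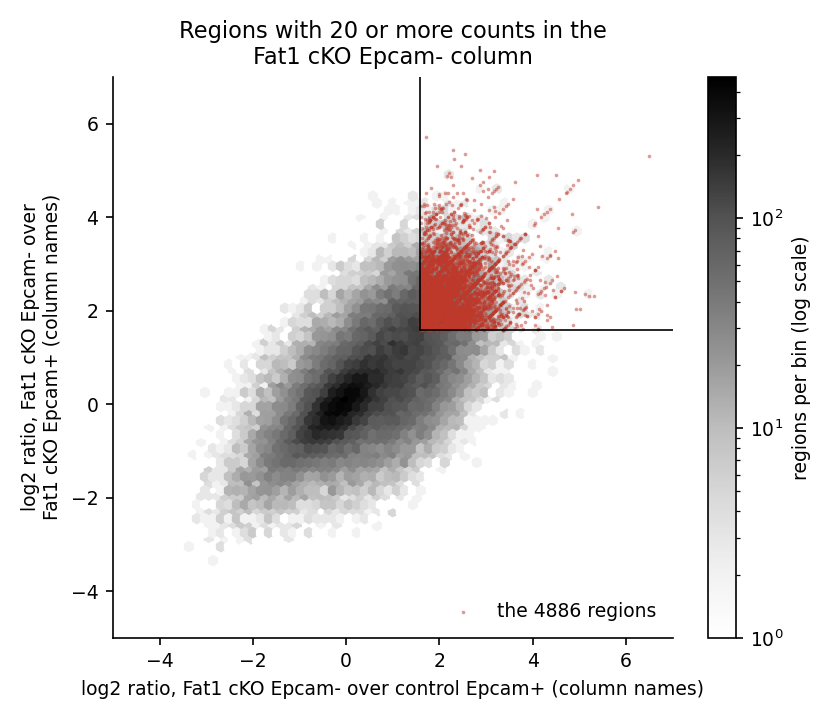
Log2 ratio of the Fat1 cKO Epcam- column over control Epcam+ (horizontal axis) and over Fat1 cKO Epcam+ (vertical axis) for the eligible regions (grey, regions per bin on a log scale), with the 4886 members in red. The lines mark 3-fold, and the cloud of regions continues across them with no gap.

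Genes of the epidermal lipid barrier had the highest share of members among 19 gene lists. The lists were chosen with earlier results of these data known, so their ranking is a description only. Each region went to the closest protein-coding gene body within 50 kb of its midpoint, which placed 3746 members, and 7.96% of all eligible regions so assigned were members. Of the 14782 genes with an eligible region, 17.0% had a member, and a gene with more regions has more chances of one. Of the lipid barrier regions, 27 of 89 (30.3%, 21.0 to 41.0) were members, at 13 of the 19 genes with an eligible region. Members cluster within genes and along chromosomes, as given below, so the intervals of list shares, which treat regions as independent, are too narrow. All 4 regions of Nipal4 were members and together held 616, 65 and 99 counts. The region over its start held 205, 30 and 48 counts, and one 10697 bp from the gene end held 263, 20 and 31. Single counts were 53 to 263, 7 to 30 and 4 to 48, so that the 2 comparison columns overlapped, while the rule itself sets the first apart.

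All 3 regions of Lipn, the lipase gene, were members, with 299, 33 and 47 counts together. Beside it Lipm, a second epidermal lipase, had 2 member regions with 164, 19 and 25 counts. Acer1 had 2 of 2, and the one inside the gene, with 140, 9 and 7 counts, was 13.9-fold over control Epcam+ (counting interval 7.47 to 40) and 9.80-fold over Fat1 cKO Epcam+. Abca12, the transporter that loads lipids into lamellar granules, had 4 members of 11 regions, with 273, 28 and 51 counts. Sptlc3, a subunit of the serine palmitoyltransferase that starts sphingolipid synthesis, had a region inside the gene body with 162, 2 and 25 counts. The 2 comparison columns differed there: its ratio was 37.8 over Fat1 cKO Epcam+ and 4.96 over control Epcam+.

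Other members of the list made, moved or cut barrier lipids. Elovl4, a fatty acid elongase, had 1 member (129, 19 and 21 counts) and Cers3, a ceramide synthase, had 2 (126, 22 and 22 counts). Abhd5, a lipase cofactor, had 1 (130, 28 and 20 counts), as had Pnpla1, which makes acylceramides (87, 14 and 10 counts). Ugcg, the glucosylceramide synthase, had 2 (87, 7 and 13) and Degs2 had 2 (67, 4 and 9).

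Squamous differentiation genes came next, with 21 of 100 regions (21.0%, 13.5 to 30.3) at 10 of 28 genes. Tgm3 had 7 of 8 regions as members, at distances of up to 32196 bp from the nearer gene end, with single counts of 21 to 113 in the Fat1 cKO Epcam- column, 4 to 10 in Fat1 cKO Epcam+ and 2 to 18 in control Epcam+, the last 2 ranges overlapping. Crnn had 4 of 4, with 405, 50 and 69 counts, and the region over its start held 163, 9 and 22. Casp14 had 2 of 4: the region over its start held 129, 7 and 8 counts, 11.4-fold over control Epcam+ and 11.3-fold over Fat1 cKO Epcam+. Ivl had 2 of 4, and its start region held 79, 11 and 16 counts.

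Smaller counts stood at other genes of the squamous differentiation list. Dsc1, a suprabasal desmosomal cadherin, had 1 member (55, 11 and 9), as had Krtdap (53, 6 and 6), Prdm1, a transcription factor of terminal differentiation (51, 11 and 9), Sprr4 (38, 4 and 5), Lor, loricrin (35, 2 and 6), and Flg2 (30, 3 and 6). Sprr and late envelope genes belong to families of similar copies, so their single counts are uncertain where reads could map to more than 1 copy.

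Basal and general epithelial genes had a lower share. Of their regions, 28 of 255 (11.0%, 7.42 to 15.5) were members, at 16 of 40 genes, and the interval includes the 7.96% of all genes. The largest counts were at Cldn1, a tight junction claudin (3 members, 246, 37 and 44), Dsg3, a basal desmosomal cadherin (2 members, 161, 20 and 21), Col17a1, the hemidesmosome collagen (3 members, 139, 18 and 29), and Tfap2a, the transcription factor AP-2 alpha (1 member, 123, 10 and 28). Trp63, which encodes the p63 master regulator, had 3 members with 27 to 43 counts each. The regions of this list that were not members split the 2 comparisons: their median log2 ratio was 1.13 over control Epcam+ and -0.07 over Fat1 cKO Epcam+. For all genes those medians were 0.01 and 0.08. The squamous list's other regions had medians of 1.12 and 0.29, and those of the lipid barrier list 0.96 and 0.19.

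Mesenchymal and EMT genes were almost without members. Only 1 of 122 eligible regions (0.820%, 0.0208 to 4.48) was a member, at Col5a1, a fibrillar collagen gene, with 31, 6 and 5 counts. Among regions with 20 or more counts in the control Epcam+ column, 36 of 198 (18.2%) from the same list were high only in that column, against 5.88% over all genes. So were 7 of 39 fibroblast and pericyte regions (17.9%), 3 of 11 muscle (27.3%), 3 of 15 melanocyte and 5 of 45 endothelial regions (11.1%), but 0 of 43 squamous and 1 of 53 lipid barrier regions. Of regions with 20 or more counts in the Fat1 cKO Epcam+ column, 0 of 49 squamous and 0 of 46 lipid barrier regions were high only there, against 4.11% over all genes, 9 of 138 mesenchymal (6.52%) and 15 of 203 basal and general epithelial regions (7.39%). The 3 sets share columns, so these shares are not independent.

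**Figure D3:**
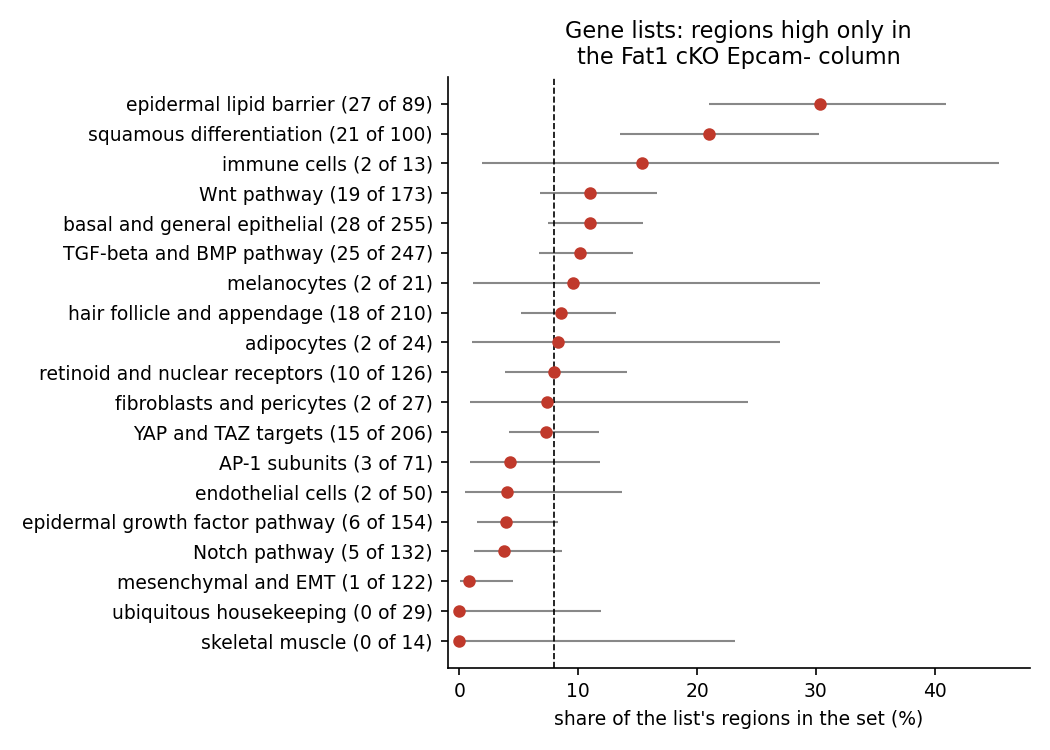
Share of each list's eligible regions that were members (%, horizontal axis), with 95% Clopper-Pearson intervals and the counts in brackets. The intervals treat regions as independent and are too narrow. The lists were chosen with earlier results of these data known. The dashed line is the share over all genes (7.96%): the lipid barrier (30.3%) and squamous differentiation (21.0%) lists lie to its right, and the mesenchymal and EMT list (0.820%) to its left.

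Appendage genes were members near the background share, with 18 of 210 regions (8.57%). Transcription factors of the hair follicle led them. Lhx2 had 3 members (425, 81 and 63 counts), one of them over an internal start. The single eligible region of Hoxc13, at the gene's end, held 316, 32 and 49 counts, 5.01-fold over control Epcam+ (3.76 to 7.04) and 6.68-fold over Fat1 cKO Epcam+ (4.76 to 10.2). Msx2 had 3 members (220, 19 and 46), and Edar, the ectodysplasin receptor, had 2 (176, 29 and 26).

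In the TGF-beta and BMP pathway 25 of 247 regions (10.1%, 6.66 to 14.6) were members, at 16 of 32 genes. The interval includes the 7.96% of all genes. Among the ligands, the region over the end of Bmp4 held 151, 9 and 10 counts, 10.9-fold over control Epcam+ and 10.6-fold over Fat1 cKO Epcam+. Bmp7 had 3 members (152, 21 and 17) and Bmp2 had 1 (99, 9 and 24). Of the receptors, Bmpr1b had 5 of 12 regions (265, 23 and 29), Acvr1 had 2 (176, 21 and 32) and Tgfbr2 had 1 (135, 18 and 34). Inhibitors were represented by Nog, noggin, whose single eligible region held 210, 38 and 43 counts, and by Smad7 (68, 9 and 8) and Bambi (59, 3 and 8).

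Wnt pathway regions were members in 19 of 173 cases (11.0%, 6.74 to 16.6), at 9 of 31 genes. This interval, too, includes the 7.96% of all genes. Fzd10, a Wnt receptor, had 5 members with 580, 60 and 68 counts, and the one over its start held 257, 33 and 24. Among ligands, Wnt9b had 2 (227, 25 and 31), of which 1 also covered an annotated start of Wnt3, and Wnt5a had 3 (161, 19 and 25). The inhibitor Sfrp1 had 4 (299, 42 and 53).

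Other signalling lists lay at or below the share of all genes. YAP and TAZ targets had 15 of 206 members (7.28%), led by Crim1 with 4 members (319, 35 and 47). Retinoid and nuclear receptor genes had 10 of 126 (7.94%), among them a region over a start of Aldh1a1, a retinaldehyde dehydrogenase, with 187, 7 and 24 counts. Notch pathway genes had 5 of 132 (3.79%), at Notch1, Notch2 and Nrarp. The epidermal growth factor pathway had 6 of 154 (3.90%), with 3 inside Egfr that held 428, 67 and 92 counts together. AP-1 subunits had 3 of 71 (4.23%), among them 1 near Jun (77, 6 and 14) and 1 near Fos (72, 13 and 13).

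Markers of other cell types had shares on both sides of the 7.96% of all genes, from short lists. Immune genes had 2 of 13 eligible regions (15.4%), both at Ptprc (43, 7 and 5 and 39, 5 and 8 counts). Endothelial genes had 2 of 50 (4.00%), fibroblast and pericyte genes 2 of 27 (7.41%), melanocyte genes 2 of 21 (9.52%, both at Dct), and adipocyte genes 2 of 24 (8.33%). Muscle markers had 0 of 14 and housekeeping genes 0 of 29. The intervals of all 7 lists include 7.96%, and the widest, for immune genes, ran from 1.92% to 45.5%.

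Member regions lay away from the ends of protein-coding genes and were narrower than eligible regions. Only 312 (6.39%, 5.72 to 7.11) covered or lay within 1 kb of a gene end, against 23.5% of eligible regions. Inside a gene body lay 47.7% of members and 57.3% of eligible regions. Over 50 kb from any protein-coding gene lay 23.3% of members and 13.7% of eligible regions. The median distance to a gene end was 29710 bp for members and 13184 bp for eligible regions, and the median width was 585 and 834 bp. The share of regions that were members rose from 1.69% where a region covered a gene end to 16.2% beyond 100 kb. It fell from 21.3% of regions of 200 to 400 bp to 1.88% of those over 1500 bp. The fall with width held among regions away from gene ends (22.0% to 3.18%) and among those near them (11.6% to 0.905%). By count in the Fat1 cKO Epcam- column, 7.16% of eligible regions with 20 to 29 counts were members, 12.1% of those with 50 to 99 and 1.64% of those with 200 or more. The part of depth in the pattern with width was not tested. The sets high only in control Epcam+ and only in Fat1 cKO Epcam+ were also rarely near a gene end (4.26% and 4.55%). Their median widths were 681 and 623.5 bp, and that of all 93843 regions was 642 bp.

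**Figure D4:**
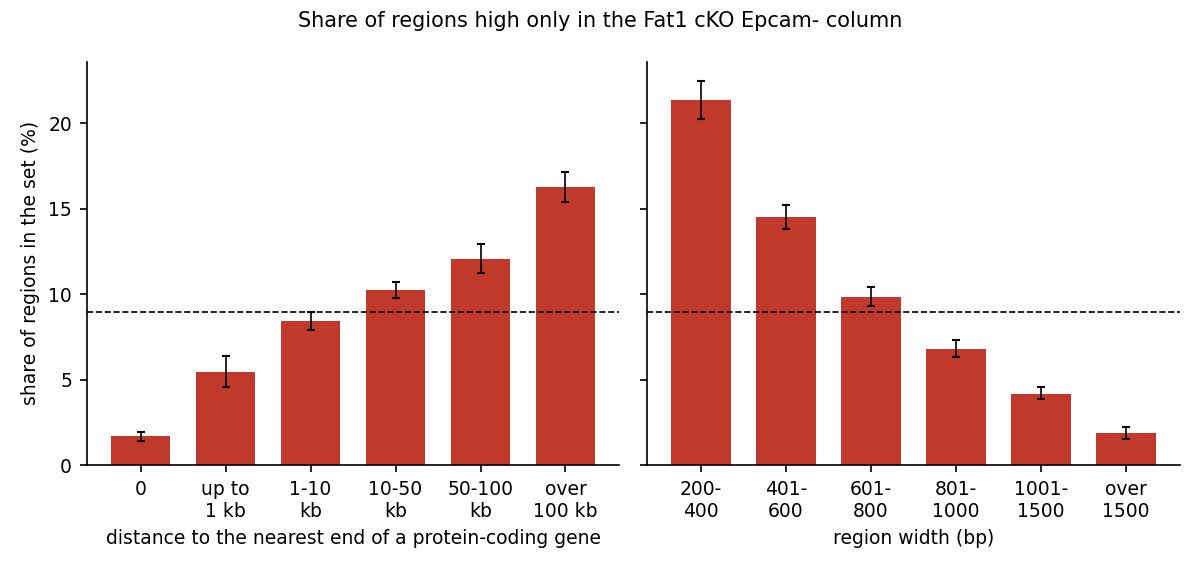
Share of eligible regions that were members (%, vertical axis, 95% Clopper-Pearson intervals) by distance to the nearest end of a protein-coding gene (left) and by region width in bp (right). The share rises with distance, from 1.69% to 16.2%, and falls with width, from 21.3% to 1.88%, around the 8.96% of all eligible regions (dashed).

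Of the 10 members with most counts, 8 covered a gene end. The highest, over the start of Cwc22, a splicing factor gene, held 635, 73 and 99 counts, 5.03-fold over control Epcam+ (4.10 to 6.33). Glo1, which encodes glyoxalase I, followed with 627, 117 and 140. Both lay among other members: 7 of 12 eligible regions within 250 kb of Cwc22 and 10 of 22 within 250 kb of Glo1 were members. Both genes are known for copy number differences between mouse strains, and these mice were of mixed background. Copy number was not measured. One on chromosome 16, from 15112914 to 15115919, lay 143853 bp from the end of a protein-coding gene and held 382, 59 and 74. It covered an annotated promoter of the gene model Gm41423. Further members over gene ends were at Rundc3b (482, 88 and 125), Klhl29 (457, 49 and 82), Vgll3, a TEAD cofactor (424, 80 and 89), Gm36722 beside Tshz3 (407, 66 and 105), Phyhipl (406, 51 and 77), Gnai1, a G protein subunit (366, 38 and 68), and Ascl2, a Wnt target transcription factor (321, 53 and 73).

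Of the 10 members named for the largest ratios, 3 had no protein-coding gene within 50 kb. One of the others, on chromosome 12 from 18609715 to 18610615, lay 38825 bp from the gene model LOC115488002. It held 113 counts in Fat1 cKO Epcam-, 1 in Fat1 cKO Epcam+ and 0 in control Epcam+. With a floor of 3 counts for the library at 0, the ratio over control Epcam+ was 29.8. This is no lower limit, because the counting interval of the ratio over control Epcam+ began at 23.8. Inside 1600014C10Rik, on chromosome 7, 3 regions between 38185266 and 38190064 held 364, 13 and 16, then 198, 4 and 4, then 167, 4 and 4 counts, ratios of 17.0 to 31.5 over control Epcam+. In all, 6 of 8 regions of that gene model were members. A region near Thap4 held 86, 4 and 3 counts, and one near Gm8909 held 71, 2 and 1. Where a gene has similar copies, reads can be split between them.

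Members also followed one another along chromosomes. The next eligible region on either side was a member for 35.1% of members and for 14.5% of other eligible regions. There were 179 runs of 3 or more members in a row and 32 of 5 or more, and the longest held 9. One run of 9 spanned the Serpinb12, Serpinb13, Serpinb3d and Serpinb3b genes on chromosome 1, from 106936383 to 107198376, a cluster of serine protease inhibitors expressed in squamous epithelia. Single regions there held 24 to 114, 2 to 9 and 2 to 10 counts, with the 2 comparison columns overlapping. Serpinb3 genes are near-identical copies, and counts at them are uncertain.

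Another run of 9 extended from Msx2 on chromosome 13, from 53472440 to 53718047, with its last region 244406 bp from the gene (531, 55 and 94 counts in sum), another filled Ctnnd2, a delta-catenin gene (611, 66 and 87), and another lay around Gm826 (725, 92 and 73). A run of 8 on chromosome 2 held 404, 41 and 57 counts. It lay 633953 to 1075154 bp from the end of any protein-coding gene, the nearest such gene being Gata3. In 1 Mb windows with 10 or more eligible regions, 11 of 1631 windows had at least 1 in 2 regions as members, among them a beta-defensin cluster around Defb14 with 7 of 12, again a family of similar genes.

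Genes with several members were long. Of 14782 genes with an eligible region, 2514 (17.0%) had a member, 274 had 3 or more and 55 had 5 or more. The 55 had a median length of 267.2 kb against 24.1 kb for all 14782. Only a gene with 5 or more eligible regions could be among the 55, and genes with similar numbers of regions were not compared. Auts2, which encodes a chromatin regulator studied in the nervous system, had 20 of 37 regions, with single counts of 20 to 176 in the Fat1 cKO Epcam- column, 1 to 23 in Fat1 cKO Epcam+ and 1 to 29 in control Epcam+. The ranges of single regions overlapped between the columns. Tenm2, a teneurin adhesion protein gene, had 12 of 27 (936, 90 and 144 in sum), Ctnnd2 had 10 of 13 (859, 91 and 135) and Macrod2 10 of 40 (563, 49 and 81). Next came Gm826 and Rapgef5 with 9 each, Arhgef4, Mcc, Nkain3 and Pdzd2 with 8, and Ano3, Tiam1, Sgms1 and Kank1 were among those with 7.

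In the median, the non-member regions of genes with a member were also higher in the Fat1 cKO Epcam- column. The other regions of genes with a member had a median log2 ratio of 0.34 over control Epcam+ (n = 14244) and 0.37 over Fat1 cKO Epcam+ (n = 13478). Regions of genes without a member had medians of -0.08 and -0.01. In genes with 5 or more members the medians were 0.91 and 0.92. These regions were outside the threshold but come from the same 3 libraries, and their genes were chosen by their members. The medians are thus no independent support, and they do not hold for every gene.

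Chromosomes differed in their share of members. It ran from 4.11% of eligible regions on chromosome 7 and 5.20% on chromosome 6 to 12.0% on chromosome 14 and 12.7% on chromosome 2. Chromosomes 6 and 7 were also the lowest in the median of regions with 20 or more counts in 1 library of a pair, at -0.34 and -0.37 over control Epcam+ and -0.27 and -0.44 over Fat1 cKO Epcam+ on the log2 scale. Chromosome 2 stood at 0.40 and 0.61. With each chromosome's median set to even, the shares ran from 4.45% on chromosome 4 to 8.70% on chromosome 6, and chromosome 2 fell to 5.33%. Whole-chromosome copy number in these tumours was not measured, and its part in the shares was not tested.

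**Figure D5:**
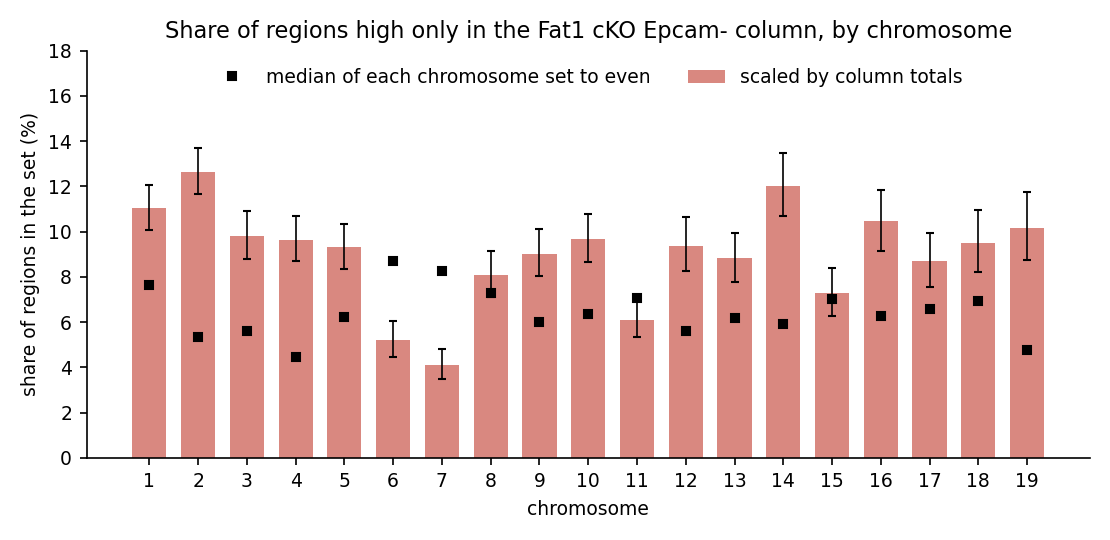
Share of eligible regions that were members (%, vertical axis) on each chromosome (horizontal axis), scaled by column totals (bars, 95% Clopper-Pearson intervals) and after centring every chromosome on its own median (squares). The order changes: chromosome 2 is the highest bar at 12.7% and has a square at 5.33%, and chromosome 6 has a bar at 5.20% and a square at 8.70%.

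Promoters inside member regions held fewer CpG than those of eligible regions and more than those of the 2 sets high only in another column. Of 31396 RefSeq promoter windows of 300 bases on chromosomes 1 to 19, 207 windows of 194 genes had at least 150 bases inside a member region and 13698 inside any eligible region. Median GC content was 58.3% in the 207, 62.0% in the 13698 and 53.0% in all windows. The ratio of observed to expected CpG was 0.534, 0.777 and 0.389, and it was 0.319 in windows inside regions high only in control Epcam+ and 0.226 in those high only in Fat1 cKO Epcam+. Several windows can belong to 1 gene or overlap, so the intervals below are too narrow.

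Motif letters differed along with base composition. AP-1 (TGANTCA) stood in 36 of the 207 windows (17.4%, 12.5 to 23.3), in 6.22% of windows in eligible regions and in 7.85% of all windows. It was not particular to members: the share was 28.8% of 73 windows in regions high only in control Epcam+ and 15.9% of 63 in those high only in Fat1 cKO Epcam+. Among the sequences printed above, AP-1 letters stand 96 bases before the start in Crnn, 116 in Ivl and 148 in Lipn. KLF/SP (GGGCGG) stood in 45.9% of member windows, 66.5% of eligible windows and 36.0% of all. ETS (CCGGAAGT) had no match in the 207 windows, against 7.86% of eligible windows, and likewise in 0 of 73 and 1 of 63 windows of the sets high only in control Epcam+ and only in Fat1 cKO Epcam+. TEAD (GGAATG) stood in 18.4%, 11.6% and 14.6%, and in 20.5% and 28.6% of the same 2 sets. RUNX (TGTGGT) stood in 12.1%, 11.8% and 16.7%, and the paired p63 site in 1 window. AP-2 (GCCNNNGGC) stood in 30.4%, 26.9% and 16.7%, and the CEBP letters in 11.6%, 7.86% and 10.9%. The other motifs searched were the E-box, spelled CACCTG (26.6%, 18.6% and 20.5%, and 11.0% and 46.0% in those 2 sets), SOX, spelled ACAAAG (13.5%, 12.5% and 18.6%), NFY, spelled CCAAT (33.3%, 36.9% and 37.3%), and GATA factors, spelled AGATAA (10.1%, 5.25% and 11.2%). GRHL, spelled AACCGGTT, and NFI had no match in the 207 windows.

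A few microRNA genes lay next to a member. Of 187 hairpins within 1 kb of an eligible region, 5 (2.67%) lay within 1 kb of a member, where 8.96% of eligible regions are members. The region at chr4:156054041-156054310, with 21, 4 and 3 counts, lay 54 bp from Mir429 and 586 bp from Mir200a, of the miR-200 family, which represses the EMT factors Zeb1 and Zeb2. With 1 count above the minimum, its counting interval over Fat1 cKO Epcam+ ran from 1.23 to 14.6. A wider region in the same 10 kb held 365, 296 and 57 counts and was not a member. Mir365-1 lay 139 bp from a member with 57, 5 and 10 counts. The mature sequences show the seeds, bases 2 to 8, in capitals, and those of miR-429-3p and miR-200a-3p, of the miR-200 family, differ from each other.
miR-429-3p: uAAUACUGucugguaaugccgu
miR-200a-3p: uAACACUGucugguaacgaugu
miR-365-3p: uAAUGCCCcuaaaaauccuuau

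Cdkn2a, the tumour suppressor locus of p16 and p19, was named after its values were seen. A member region over one of its starts held 199, 7 and 37 counts, so that the Fat1 cKO Epcam+ column was the lowest and control Epcam+ lay between.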

How the data were processed

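ATAC-seq was measured in 3 libraries, 1 per group. The authors deposited 1 table of raw counts per merged region and library, with a yes or no peak call for each library (other values). Per the submitters' processing notes, mm10 (GRCm38) was the build and Bowtie2 2.2.6, SAMtools, Picard and MACS2 2.1.0.20151222 the tools, with no role given. How counts were made, the filters, the peak threshold and any shift for Tn5 were not given in the sources used here. Such a shift is small against the width of the regions.

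Columns were matched to libraries by name, and every mapped column was used. Scaled values are (count + 1) per 1000000 nuclear counts, so ratios of low counts are understated. Ratios were recomputed with TMM (edgeR 4.0.16) and DESeq2 1.42.0 size factors in R 4.3.3. Everything else used Python 3.11.15, pandas 2.3.3 and scipy 1.17.1. The script was tested on simulated data. Intervals are 95% Clopper-Pearson intervals of shares or of ratios of counts. Those of shares of regions treat regions as independent. For a library at 0, a floor of 3 counts was used.

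Gene positions came from a RefSeq table of GRCm38 without exons, so a region could be placed only by gene bodies and by gene ends (near means within 1 kb of either), and overlapping or antisense genes cannot be told apart. Of 409 list symbols, 407 matched. Promoter windows run from 250 bases before to 50 after a start and cover 17491 of 21883 protein-coding genes. The planned motif search in the centre of all regions needs a genome, not used here, so it was run on promoter windows only.

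The members and the 19 lists were chosen with earlier results of these data known. Text names follow a rule: the 10 members with most counts, the 10 with the largest smaller ratio among those with 50 or more counts, the 10 with most counts near a gene end, the 15 genes with most members, up to 4 genes per list, and the marker genes. Further list genes, the runs and the microRNAs were named after their values were seen. Some genes that the rule names are not reported here. Alternatives changed the fold, the added count, the minimum count, the scaling, the gene assignment and the distance that counts as near; leaving out a comparison library was added after seeing the data.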

Additional observations from a re-analysis of the deposited data

Results flagged for a closer look

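Chromosomes X and Y lay outside the rule, and the same thresholds were applied to them as data not used elsewhere. On Y, 14 of the 19 regions with 20 or more counts in the Fat1 cKO Epcam- column (73.68%) passed both 3-fold thresholds, against 8.96% on chromosomes 1 to 19. The 33 Y regions summed to 1196 counts in the Fat1 cKO Epcam- column, 218 in Fat1 cKO Epcam+ and 339 in control Epcam+. On X, 41 of 930 such regions (4.409%) passed, and the 1964 X regions summed to 82201, 59070 and 72860 counts in the same order. Both were singled out because they hold signal outside the main measurement. The cause was not tested.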

How the results depend on the processing

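Of the values that answer a question of the report, 69 moved by less than their counting error or by less than 1.5-fold under an alternative, 53 moved by more and 0 reversed. The other values, for single genes or lists, gave 217, 98 and 0.

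The number of members followed the thresholds. At 2-fold there were 11137 members, of which 16.4% were called in their own column, 98.1% in the control column and 8.09% near a gene end, with 4741 genes, 176 list genes and AP-1 in 12.4% of promoters. At 4-fold there were 2117, with 8.79% called in their own column, 5.43% near a gene end, 1215 genes and 61 list genes. With 5 counts added there were 2184, with 16.9% and 99.6% called, 7.14% near a gene end, a median width of 706.5 bp, 1242 genes and 67 list genes. With no minimum count, 97.5% were called in the control column and the median width was 556 bp, and with a minimum of 10 counts 98.0% and 559 bp. A minimum of 50 counts left 2351 members, with 22.7% and 100% called, 8.85% near a gene end, a median width of 804 bp and 1411 genes.

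With either comparison library left out, the number ran from 9524 to 9996, the share called in the own column from 15.1% to 24.8% and in the control column from 96.5% to 97.6%. The share near a gene end ran from 7.69% to 8.49%, the width from 602 to 616 bp, genes with a member from 4129 to 4484, list genes from 153 to 197, median GC of covered promoters from 59.3% to 60.5% and AP-1 from 12.7% to 14.3%. TMM scaling gave medians of 0.39 and 0.31 for the other regions of genes with members over control Epcam+ and Fat1 cKO Epcam+, and no minimum count gave 0.15 and 0.21. In the central 200 bases, AP-1 stood in 12.1% of promoters. Only members inside gene bodies gave 1597 genes and 64 list genes, and only those within 1 kb of a gene end 302 and 23. A gene end within 500 bp held for 5.10% and within 2000 bp for 9.25%. No paired analysis was possible because each group has 1 library, which is also why leaving out a replicate of a group gave no comparison. Depth limits single members, whose median count is 6 in Fat1 cKO Epcam+ and 8 in control Epcam+.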
